A study of Mus musculus with 90 samples.

Results

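YUMM2.1, a mouse melanoma line, was kept in 50 IU/mL IFNγ for 1 week and was then given fresh IFNγ for 2 h. The 3 cultures collected after this 2 h rechallenge were compared with the 3 cultures that had the same week of IFNγ and received no fresh cytokine, called 0 h here. These are 6 of the 90 samples of the series and were chosen by their labels alone. The comparison asks which genes fresh IFNγ still moved within 2 h in cells that had already been exposed to it for 1 week. Values from other YUMM2.1 groups of 3 samples each are set beside them: cells at 0 weeks that had never met IFNγ (naive cells) without treatment or after 2 h or 24 h of 50 IU/mL IFNγ, untreated control cultures at 1 week, 1-week cultures 24 h after rechallenge, and 2-week and 3-week cultures at 0 h and 2 h. All cultures were moved to 6-well dishes for the last 48 h, and the labels describe triplicate experiments on 1 cell line. No culture received a mock addition for 2 h, so fresh IFNγ and the handling that went with it cannot be told apart.

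IFNγ binds a receptor that carries the kinases JAK1 and JAK2, and these activate STAT transcription factors, which enter the nucleus as dimers and bind short DNA elements called GAS. STAT dimers switch on further factors such as IRF1, which bind a second kind of element (ISRE) and start a later wave of genes for antigen processing, guanylate-binding proteins, immunity-related GTPases and chemokines. SOCS1 and other feedback inhibitors then restrain the receptor. In melanoma cells the pathway is known for antigen presentation and for the checkpoint ligand PD-L1, which is encoded by Cd274.

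The assay was 3′ digital gene expression, in which a transcript is read near its 3′ end only. The 0 h libraries held 1965197, 1882436 and 484092 counts and the 2 h libraries 2074740, 1512505 and 772648, within the YUMM2.1 range of 274719 to 3161276, so replicate 3 was the shallowest library of each group. Values below are counts scaled to library size (CPM) with TMM factors, and 9589 of 53697 listed genes passed the filter on low counts. Of 10 markers of the melanocyte lineage, Tyrp1 and Mlana were at 0 in all 6 libraries, and Sox10, Ngfr and S100b were high enough to be tested, with a summed level of all 10 between 198 and 285 CPM. Nearly all of that sum came from Sox10, Ngfr and S100b, with 267, 881 and 699 counts over the 6 libraries. Mitf, Tyr, Dct, Pmel and Sox9 were near the floor, with 20, 5, 9, 1 and 8 counts. Of 9 leukocyte markers, 6 were at 0, Ptprc included, and the sum ran from 2.07 to 5.84 CPM at 0 h and from 4.63 to 9.06 CPM at 2 h. Of 8 epithelial markers, 7 were at 0, with a sum of at most 0.531 CPM. The 7 fibroblast markers summed to between 72.2 and 136 CPM, mostly Col3a1 and Col1a2, and the 5 endothelial markers to between 333 and 512 CPM, nearly all Pecam1. Only 3 melanocyte, 1 leukocyte, 0 epithelial, 2 fibroblast and 1 endothelial markers were high enough to be tested. None of those tested passed between 0 h and 2 h, and the others could not pass.

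At 2 h of rechallenge, 48 genes rose, 0.501% of the genes tested, and 11 fell, 0.115% (edgeR's quasi-likelihood test, Benjamini-Hochberg adjusted p below 0.05). The rises included IFNγ targets (Cxcl10, Cd274, Irf1, the GTPases of the Gbp and Irg families) and genes with other textbook roles, among them Junb, Egr1, Skil and Lif. The rises ranged from 0.79 to 4.06 on the log2 scale with a median of 1.99, and 44 of them were at least 1. The falls were shallower, between -1.17 and -0.59 with a median of -0.81, and 4 of them were at least 1 in size. Over all genes tested the median difference was 0.01. All 48 rises had 3 samples at 2 h above all 3 at 0 h, a pattern that 7.73% of all tested genes showed, and 10 of the 11 falls had the opposite pattern, which 6.07% showed. Unadjusted, 1065 genes had a p below 0.05. Fitting the 2 groups alone, in place of all 15 YUMM2.1 groups, left 39 genes, 38 higher and 1 lower. Of these, 36 were among the 59, and none of the 11 falls was.

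**Figure D1:**
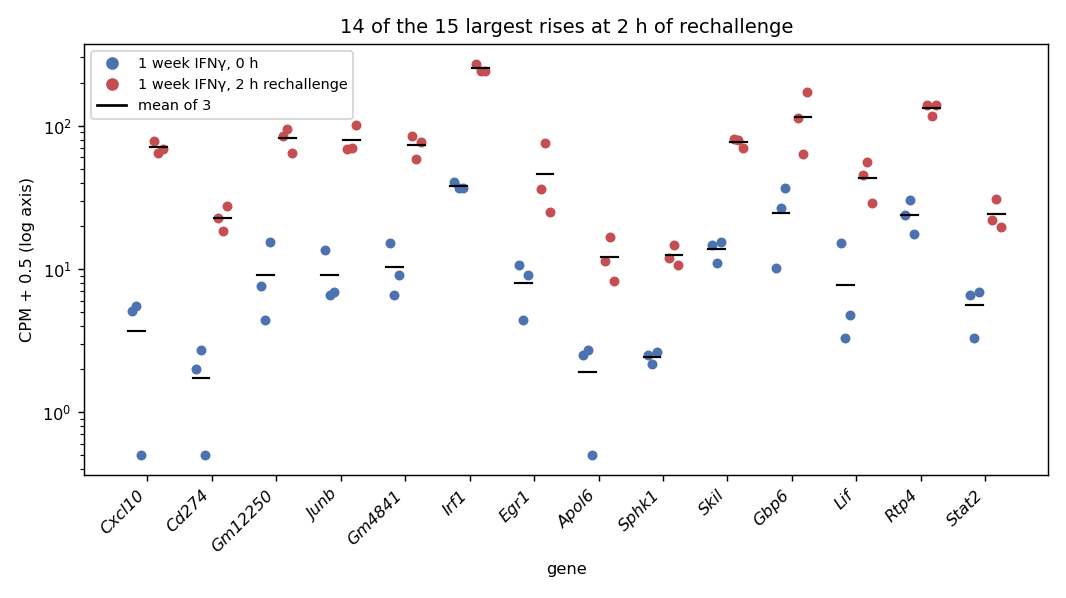
CPM plus 0.5 on a log axis of 14 of the 15 largest rises, ordered by fold change, in the 3 cultures at 0 h (blue) and the 3 at 2 h of rechallenge (red) after 1 week of IFNγ, with the mean as a bar. For every gene shown the 3 rechallenged cultures lie above the 3 others, and Irf1 goes from 36.0 to 40.0 CPM up to 241 to 271 CPM.

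Irf1, the gene of a transcription factor that IFNγ induces early, stood at 40.0, 36.0 and 36.2 CPM at 0 h and at 271, 242 and 241 CPM at 2 h. The 2 groups were far apart and each was narrow. The rise was 2.74 ± 0.17 on the log2 scale (SE, adjusted p = 5.56e-16), a 6.66-fold change. Cxcl10, which encodes a chemokine that draws CXCR3-bearing T cells, had 4.55, 4.99 and 0 CPM at 0 h and 78.3, 64.4 and 67.9 CPM at 2 h. It had few counts before rechallenge and many in every culture after it, a rise of 4.06 ± 0.38 (adjusted p = 8.93e-11). Cd274 had 1.52, 2.22 and 0 CPM at 0 h and 22.3, 17.9 and 26.9 CPM at 2 h, a rise of 3.70 ± 0.54 (adjusted p = 1.07e-05). Its 98 counts over the 3 rechallenged libraries stood against 7 in the others, a depth-corrected ratio of 13.0 with an exact 95% interval of 6.09 to 33.3 that covers counting error only. Cxcl9 and Il6 did not pass the filter on low counts.

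Parp14, an interferon-induced ADP-ribosyltransferase gene and the target on which the study centred, had 5.06, 6.65 and 4.26 CPM at 0 h and 24.2, 21.5 and 23.04 CPM at 2 h. The groups did not overlap, and the rise was 2.02 ± 0.42 (adjusted p = 0.00497). Without replicate 1 of the 0 h group the adjusted p was 0.0779. It lies on chromosome 16 at 35832874 to 35871544, on the minus strand of GRCm38. Of the 7 interferon-induced PARPs and Dtx3l, all tested, 3 rose and 0 fell, with a median of 1.17. Dtx3l, a ubiquitin ligase gene, and Parp9, whose protein partners with it, were the other 2, with rises of 2.17 and 1.52. Dtx3l lost its call in 5 of 12 alternative analyses and Parp9 in 3. Parp10, Parp11, Parp12 and Zc3hav1 did not pass, with differences of 1.17, 0.38, 0.95 and 0.57.

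Upstream of these targets, the IFNγ receptor, JAK and STAT list had 1 rise among 8 tested genes and a median of 0.49. Stat2, which works with IRF9 in interferon signalling, had 6.07, 2.77 and 6.39 CPM at 0 h and 21.3, 30.4 and 19.2 CPM at 2 h, a rise of 2.32 ± 0.50 (adjusted p = 0.00739). That call was lost when replicate 2 of either group was left out. Ifngr1, Ifngr2, Jak1, Jak2, Tyk2 and Stat3 did not pass, and the largest of their differences was 1.37 for Stat3 (adjusted p = 0.0842). No feedback inhibitor passed: 0 of 8 tested rose or fell, with a median of 0.24. Socs1 was closest, at 4.55, 7.76 and 8.52 CPM at 0 h and 20.4, 24.4 and 11.5 CPM at 2 h, a difference of 1.58 ± 0.42 (adjusted p = 0.0651), and it passed in 2 of 12 alternative analyses. Among 6 IRF factors and transactivators, Irf1 rose and 5 did not pass, Nlrc5 among them with a difference of 1.28 (adjusted p = 0.314).

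Many of the interferon-induced GTPases, which act against intracellular pathogens, rose. Of 9 tested guanylate-binding proteins 5 rose and 0 fell, with a median of 1.62, and of 8 immunity-related GTPases 5 rose and 0 fell, with a median of 1.81. Gbp2 went from 72.3, 85.9 and 40.5 CPM to 225, 209 and 228 CPM, a rise of 1.62 ± 0.14 (adjusted p = 1.26e-11). Igtp (also called Irgm3) went from 118, 118 and 63.9 CPM to 411, 370 and 419 CPM, a rise of 1.91 ± 0.17 (adjusted p = 1.95e-11). In both genes replicate 3 at 0 h was the lowest of its group, and the rechallenged cultures were nearly level with each other. Iigp1 went from 164, 142 and 132 CPM to 711, 530 and 627 CPM, a rise of 2.07 (adjusted p = 4.02e-13). Irgm1, Irgm2 and Ifi47 rose by 1.71, 1.97 and 1.61, and Gbp3, Gbp4, Gbp6 and Gbp7 by 1.34, 1.50, 2.44 and 1.62. Of the members that did not pass, Gbp9 had a difference of 0.42, Tgtp1 of 2.15 (adjusted p = 0.0858) and Tgtp2 of 1.69 (adjusted p = 0.0822), and Gbp10 had no count in any 0 h library. Gm12250, which lies among the immunity-related GTPase genes of chromosome 11 and is not counted in the lists, rose from 7.08, 3.88 and 14.9 CPM to 84.9, 94.8 and 64.0 CPM. Its change of 3.59 ± 0.31 had an adjusted p of 8.69e-12. Members of these families are near-identical in places, so values of single members are less certain than the direction of the family. Gm4841, also a GTPase-like gene, rose by 2.83.

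Few antiviral genes and no antigen-presentation genes passed at 2 h. Of 26 tested antiviral genes 2 rose, Rtp4 (a receptor transporter gene) by 2.39 and Ifit3 (an RNA-binding antiviral gene) by 1.58, and 0 fell, with a median of 0.30. None of 12 tested genes for the immunoproteasome and peptide loading passed, with a median of 0.19, and none of 7 tested MHC class I genes, with a median of -0.11. Psmb9, an immunoproteasome subunit, had 79.9, 77.1 and 70.3 CPM at 0 h and 92.0, 64.4 and 74.3 CPM at 2 h. B2m, the light chain of MHC class I, had 2810, 2716 and 2549 CPM at 0 h and 3085, 2212 and 2139 CPM at 2 h. In both genes the groups overlapped, with differences of 0.01 and -0.12. The peptide transporter gene Tap1 was not as flat, at 19.2, 9.43 and 14.9 CPM at 0 h and 32.7, 43.5 and 24.3 CPM at 2 h, a difference of 1.24 (adjusted p = 0.178). Tap2, its partner, and Tapbp, a peptide-loading chaperone gene, had differences of 1.25 and 0.87 (adjusted p = 0.481 and 0.187). In all of these 3 genes, chosen after their values were seen, the groups did not overlap. Of all tested genes, 7.73% were separated in this direction. Members of both lists were already high before rechallenge: against the untreated control cultures at 1 week, 8 of the 12 and 5 of the 7 were higher at 0 h, where 0.657% of all genes were higher and 0.073% lower. The same was so of lists with rises at 2 h, with 7 of the 8 immunity-related GTPases and 6 of the 9 guanylate-binding proteins higher at 0 h than in those controls. That comparison shares the 0 h cultures with the rechallenge. For Psmb9 the 1-week control cultures had 0.920, 0.397 and 1.35 CPM.

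**Figure D2:**
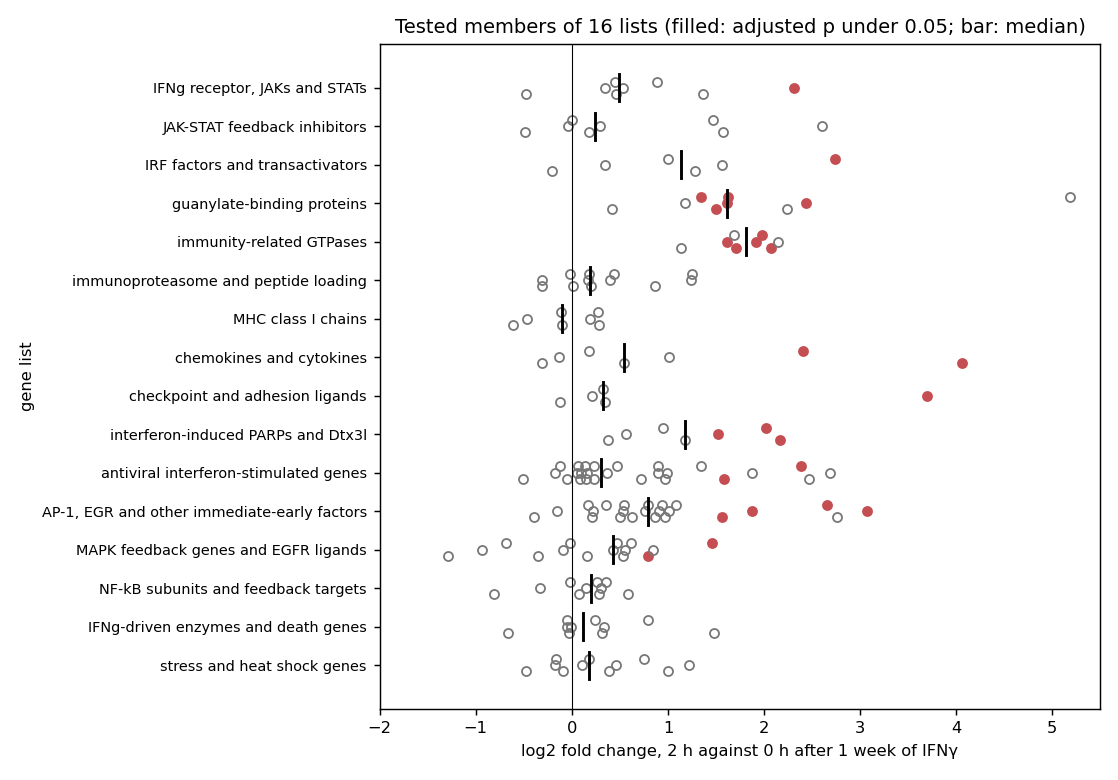
Log2 fold change at 2 h against 0 h after 1 week of IFNγ for every tested member of 16 gene lists, filled where the adjusted p was below 0.05, with the list median as a bar. Filled points sit to the right of 0 in the GTPase, PARP and immediate-early lists, and the immunoproteasome and MHC class I lists centre on 0.19 and -0.11 with no filled point.

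A second set of rises belonged to immediate-early and growth-factor genes. Of 23 tested AP-1, EGR and other immediate-early genes 4 rose and 0 fell, with a median of 0.79. Junb, a subunit of the AP-1 transcription factor, had 13.2, 6.10 and 6.39 CPM at 0 h and 68.3, 69.2 and 99.9 CPM at 2 h, a rise of 3.07 ± 0.34 (adjusted p = 6.84e-09). Egr1, a zinc-finger immediate-early factor, had 10.1, 3.88 and 8.52 CPM at 0 h and 35.6, 75.7 and 24.3 CPM at 2 h, a rise of 2.65 ± 0.44 (adjusted p = 9.87e-05). Both genes were separated between the groups, with Egr1 the more scattered at 2 h. Egr2 and Ccn1, a secreted matricellular protein gene, rose by 1.87 and 1.56. Fos did not pass the filter, and the AP-1 members Jun, Fosl1 and Fosl2 had differences of 0.21, -0.15 and 0.91 that did not pass. Of 15 tested MAPK feedback genes and EGFR ligands 2 rose and 0 fell, with a median of 0.42. Hbegf, an EGFR ligand, had 70.3, 72.6 and 57.5 CPM at 0 h and 131, 119 and 101 CPM at 2 h, the smallest of the rises at 0.79 ± 0.17 (adjusted p = 0.00585). Errfi1, an inhibitor of EGFR, rose by 1.46. Over 12 alternative analyses Hbegf lost its call in 3, Egr2 in 2 and Errfi1 in 1, while Junb, Egr1 and Ccn1 kept theirs in all. No gene passed among 10 NF-kB subunits and targets (median 0.20, Nfkbia 0.30), 10 enzymes and death genes (0.12) or 11 stress genes (0.17).

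Skil, a repressor of SMAD signalling, had 14.2, 10.5 and 14.9 CPM at 0 h and 80.2, 79.3 and 69.1 CPM at 2 h, a rise of 2.57 ± 0.28 (adjusted p = 6.84e-09). Both triplets were tight. Sphk1, which makes sphingosine-1-phosphate, and Apol6 had 56 counts at 2 h and 8 at 0 h each, a depth-corrected ratio of 6.52 (exact 95% interval 3.09 to 15.8, counting error only). Apol6 lost its call in 4 of 12 alternative analyses and Sphk1 in 3 of 11. Lif, an interleukin-6 family cytokine, had 14.7, 2.77 and 4.26 CPM at 0 h and 44.6, 54.9 and 28.2 CPM at 2 h. The groups did not overlap, and it rose by 2.41 (adjusted p = 0.00124), a call lost in 1 of 12 alternative analyses. Lif and Cxcl10 were the 2 of 7 tested chemokines and cytokines to rise, and Cd274 the 1 of 5 tested checkpoint and adhesion ligands. Of the 172 tested genes in the 16 lists, 26 rose and 0 fell. Further rises outside the lists and outside the rule for naming genes, given after their values were seen, included Pdgfb, Pmepa1, Runx1 and Ets1, at 2.21, 2.03, 1.69 and 1.14. Ets1 lost its call in 8 of 12 alternative analyses, Runx1 in 2, Pdgfb in 1 and Pmepa1 in 0.

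The falls had no member in the lists. Nop56, a core protein of box C/D ribonucleoproteins that guide ribosomal RNA methylation, had 316, 318 and 315 CPM at 0 h and 211, 212 and 210 CPM at 2 h. It fell by 0.59 on the log2 scale (SE 0.10, adjusted p = 0.000332) with almost no spread within either group. Tsc22d1, a leucine-zipper gene, had 567, 661 and 543 CPM at 0 h and 403, 315 and 373 CPM at 2 h, and fell by 0.71 (adjusted p = 0.000235). Acat2, an acetyl-CoA acetyltransferase, had 93.1, 81.5 and 72.4 CPM at 0 h and 51.7, 56.7 and 47.4 CPM at 2 h, and fell by 0.68 (adjusted p = 0.00508). In these 3 genes the 2 groups did not overlap. Flrt3, Lgals7 and Chac2 fell by 1.03, 1.11 and 1.05, and Luc7l, Tex10, Etfa and Aspa by 0.90, 0.81, 0.73 and 0.68. Yaf2 was the exception without separation: replicate 3 at 0 h had 6.39 CPM, below all 3 rechallenged cultures at 8.54, 8.95 and 14.1 CPM, while the other 2 had 27.3 and 25.5 CPM. Over 12 alternative analyses, Tex10 and Etfa lost their call in 9, Yaf2 in 8, Chac2 in 6, and Luc7l and Aspa in 5. Acat2 and Lgals7 lost theirs in 3, and Nop56, Tsc22d1 and Flrt3 in 1.

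**Figure D3:**
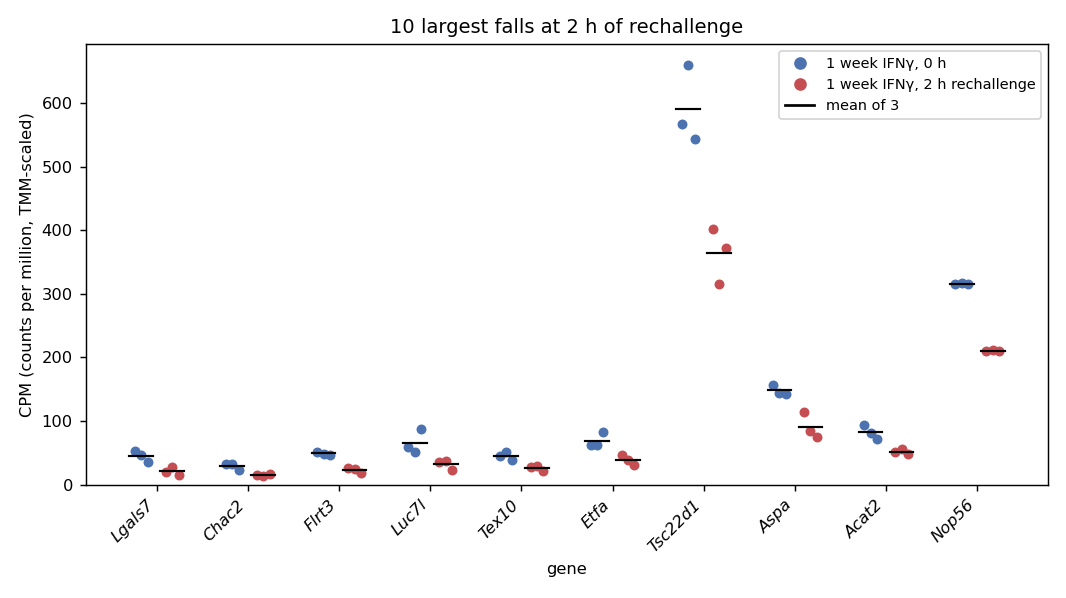
CPM, on an axis from 0, of the 10 largest falls whose groups did not overlap, in the 3 cultures at 0 h (blue) and the 3 at 2 h (red) after 1 week of IFNγ, with the mean as a bar. Nop56 moves from 315 to 318 CPM down to 210 to 212 CPM, and the other falls show more spread between cultures.

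The 2 h response after 1 week was then compared with that of naive cells, which share no samples with it. The naive cultures belong to 0 weeks, and no culture kept for 1 week without IFNγ received it for 2 h. Prior IFNγ and the week of culture therefore cannot be told apart in these differences, or in the 2 h levels compared below. In naive cells 23 genes rose (0.24% of the genes tested) and 0 fell at 2 h (348 genes had an unadjusted p below 0.05, and DESeq2 called 1 fall). Of the 48 rises after 1 week, 18 also rose in naive cells, which is 37.5% of the 48 and 78.3% of the 23. The difference between the 2 responses itself passed in 14 genes, with 5 larger after 1 week (0.0521%) and 9 smaller (0.0939%). Those with a smaller response included 7 interferon-induced GTPases and Irf1, and those with a larger one were Junb, Skil, Ccn1, Hbegf and Sphk1.

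**Figure D4:**
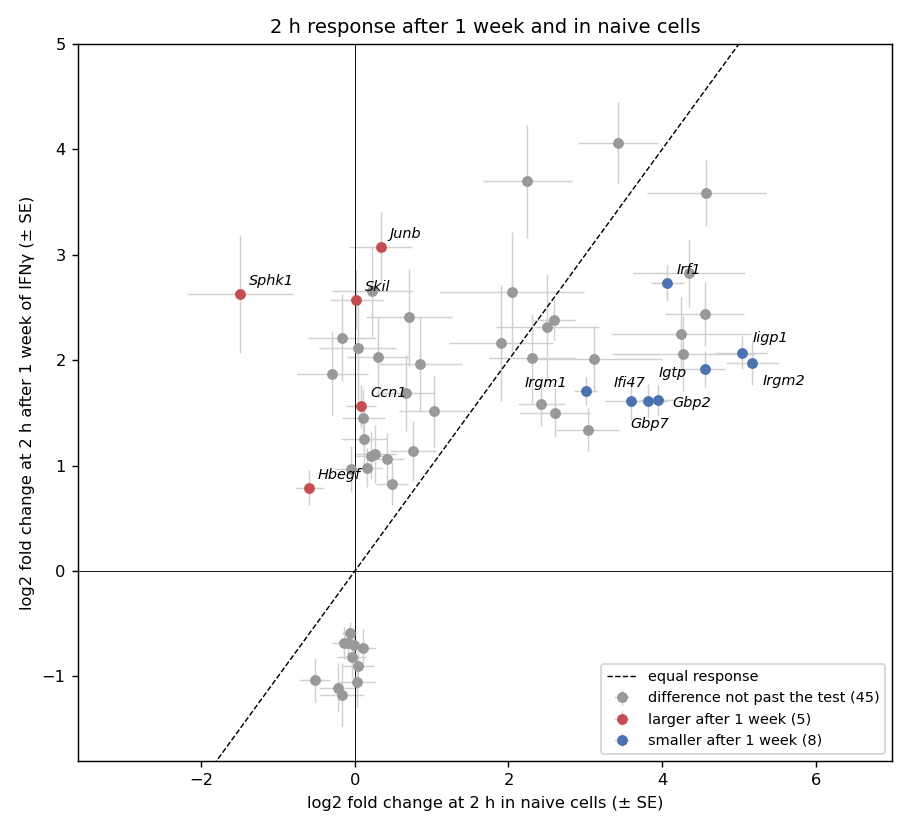
Log2 fold change ± SE at 2 h in naive cells (horizontal) and after 1 week of IFNγ (vertical) for 58 of the 59 genes called after 1 week, with the 5 genes whose response was larger after 1 week in red and 8 whose response was smaller in blue. Blue genes lie below the dashed line of equal response at naive changes above 3, and red genes lie near a naive change of 0 or below.

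Irf1 had 10.4, 7.33 and 8.37 CPM in untreated naive cultures and 177, 121 and 157 CPM after 2 h, a response of 4.07, so the response after 1 week was smaller by -1.33 ± 0.29 (adjusted p = 0.0282). Its level at 2 h was nonetheless higher after 1 week, by 0.73 (adjusted p = 0.00171), and every culture rechallenged at 1 week lay above every naive culture. That difference in response was lost in 11 of 17 alternative analyses. Igtp rose in naive cells from 9.82, 3.66 and 5.15 CPM to 176, 165 and 146 CPM. The naive 2 h level was above that of the 0 h cultures at 1 week and below that of the rechallenged cultures, and the responses of 4.56 and 1.91 differed by -2.65 (adjusted p = 1.12e-06). Iigp1, Irgm2, Gbp2, Gbp7, Ifi47 and Irgm1 differed by -2.96, -3.20, -2.32, -2.20, -1.99 and -1.30, and of these Ifi47 lost its call in 8 of 17 alternative analyses. Like Irf1, these GTPases were higher at 2 h after 1 week than at 2 h in naive cells. At that time 143 genes were higher after 1 week (1.49%) and 30 lower (0.313%). Without replicate 2 of the 1-week 2 h group these 173 genes became 82, and without replicate 1 or 3 of the naive 2 h group 88 or 87.

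Junb had 5.46, 7.33 and 9.01 CPM in untreated naive cultures and 11.1, 7.31 and 8.16 CPM after 2 h. These values overlapped, and the naive difference of 0.34 did not pass, so the response after 1 week was larger by 2.73 ± 0.54 (adjusted p = 0.00723). Leaving out replicate 2 of the 1-week 0 h group or replicate 3 of the naive control ended that call. Skil had 11.5, 12.2 and 5.79 CPM and then 9.34, 8.05 and 11.9 CPM, a naive difference of 0.02 against 2.57 after 1 week (difference 2.55 ± 0.45, adjusted p = 0.00102). Hbegf had 68.2, 51.3 and 72.1 CPM and then 53.4, 37.3 and 35.6 CPM. Its naive difference of -0.60 did not pass, and its responses differed by 1.39 ± 0.24 (adjusted p = 0.00102). Ccn1 and Sphk1 differed by 1.49 and 4.13, the latter in a gene with few counts that lost its call in 9 of 17 alternative analyses. For Egr1, Egr2 and Lif the differences between responses were 2.42, 2.16 and 1.71 and did not pass. Cxcl10, Cd274, Parp14, Rtp4 and Stat2 had differences of 0.64, 1.45, -0.29, -0.21 and -0.19, which did not pass either. Cd274 and Parp14 were not called in naive cells, where their changes were 2.25 (adjusted p = 0.132) and 2.31 (adjusted p = 0.0683).

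**Figure D5:**
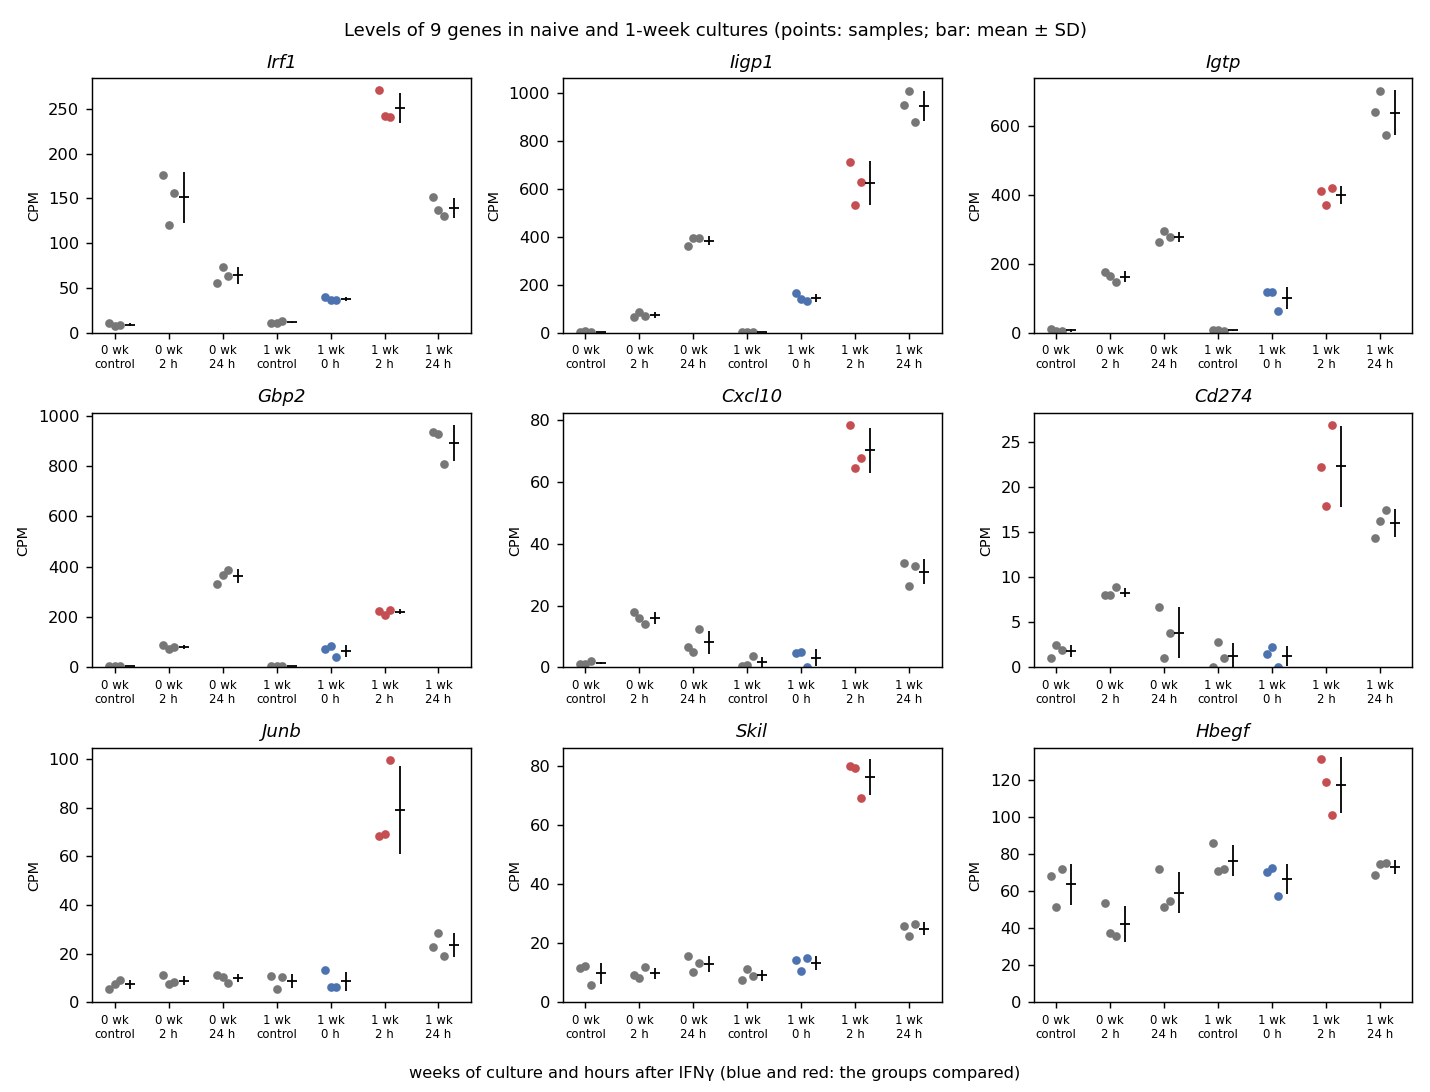
CPM of 9 genes in each culture of 7 YUMM2.1 groups, with mean ± SD beside the points (n = 3), on axes from 0, the 1-week 0 h group in blue and the 1-week 2 h group in red. Junb, Skil and Hbegf are highest in the red group, at means of 79.1, 76.2 and 117 CPM, while Igtp, Iigp1 and Gbp2 are higher still at 24 h of rechallenge.

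The DNA upstream of the genes that rose was searched for letters like those that STAT and IRF factors bind. RefSeq promoter windows of GRCm38.p6, from 250 bases before to 50 after each start, were found for 31 of the 48 genes that rose, and matches were counted in the 250 bases before the start, on both strands. A GAS-like match was TTCNNNGAA, and an ISRE-like match was GAAANNGAA or its reverse complement, and matches of both kinds may overlap. At least 1 match lay in 43.1% of the 51 windows of the rises and in 13.4% of all 32851 windows. By gene, these were 19 of 31 rises (61.3%) and 15.3% of all 27025 genes with a window. Of the 18 genes that also rose in naive cells, 12 had windows and 11 of these had a match (91.7%), Ifi47 being the exception. Of the 30 that were not called in naive cells, 19 had windows and 8 had a match (42.1%). A missing naive call does not by itself show a different response, so this split is a description only. Junb, Ccn1, Lif and Errfi1 had none in their windows. Skil, Egr1, Parp14, Gbp6 and Rtp4 had no window in the table. The stretches below are examples chosen because they hold a match, in capitals, from genes whose values are given above. They are not ranked by size of rise. Each is read 5′ to 3′ on the gene's strand from the side upstream of the RefSeq start.
Irf1, chr11:53769904-53769952, plus strand: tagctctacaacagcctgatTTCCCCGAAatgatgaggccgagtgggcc
Igtp, chr11:58199491-58199550, plus strand: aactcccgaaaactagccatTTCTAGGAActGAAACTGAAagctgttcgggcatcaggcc
Irgm2, chr11:58214882-58214941, plus strand: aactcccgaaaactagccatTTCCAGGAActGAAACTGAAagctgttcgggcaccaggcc
Gbp2, chr3:142620585-142620633, plus strand: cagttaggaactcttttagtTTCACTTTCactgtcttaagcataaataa
Cxcl10, chr5:92349074-92349122, minus strand: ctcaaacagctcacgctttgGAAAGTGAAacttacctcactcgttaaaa
Cd274, chr19:29367342-29367390, plus strand: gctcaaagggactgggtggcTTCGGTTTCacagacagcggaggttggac

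The Irf1 stretch held a single GAS-like match 90 bases upstream, and the stretches of Igtp and Irgm2, neighbouring paralogs, held a GAS-like and an ISRE-like match side by side. The Gbp2, Cxcl10 and Cd274 stretches held an ISRE-like match 58, 213 and 76 bases upstream. Gm12250 had 3 matches, 2 ISRE-like and 1 GAS-like. A match is a description of letters and no measure of binding.

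The cultures at 24 h of rechallenge were compared with those at 2 h. This contrast shares the 2 h cultures with the one above, so the values are given side by side only. From 2 h to 24 h, 54 genes were higher (0.563%) and 14 lower (0.146%). The counts depended on single libraries, with 40 genes called without replicate 2 of the 2 h group and 41 without replicate 1 or replicate 2 of the 24 h group. Of the guanylate-binding proteins 6 of 9 and of the immunoproteasome and peptide-loading genes 6 of 12 were higher at 24 h. Gbp2 went from a mean of 221 ± 10.4 CPM (SD, n = 3) at 2 h to 891 ± 70.7 CPM at 24 h, a further 2.02 (adjusted p = 5.30e-16). Zbp1, a nucleic acid sensor, Psmb10, an immunoproteasome subunit, Gbp4 and Il18bp, which binds interleukin-18, were higher by 2.33, 1.40, 2.08 and 3.65, and of these 4 genes Gbp4 alone had passed at 2 h. Junb and Skil were lower at 24 h by -1.73 and -1.62, Irf1 by -0.85, Ccn1 by -0.94, Hbegf by -0.70 and Cxcl10 by -1.19. Ecel1, an endopeptidase-like gene that had not passed at 2 h, was lower by -1.89. Parp14, Cd274 and Socs1 had differences of 0.21, -0.45 and -0.29 that did not pass.

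Responses to 2 h of rechallenge at 2 and 3 weeks came from other cultures. At 2 weeks 40 genes rose (0.417%) and 1 fell, and at 3 weeks 84 rose (0.876%) and 20 fell (0.209%). These 41 genes became 25 without replicate 1 of the 2-week 2 h group, and the 104 became 60 or 64 without replicate 1 or 2 of the 3-week 0 h group and 38 when the 2 groups were fitted alone. Of the 48 rises at 1 week, 27 rose at 2 weeks (56.2% of the 48 and 67.5% of the 40) and 38 at 3 weeks (79.2% and 45.2% of the 84). The difference between the responses at 1 and 2 weeks passed in 0 genes by edgeR (636 with an unadjusted p below 0.05), in 3 by DESeq2 and in 47 by edgeR without the filter on low counts. That between 1 and 3 weeks passed in 0 genes by edgeR (428 unadjusted), in 1 by DESeq2 and in 12 without the filter. The 3 genes of DESeq2 were Lgals7, Gm10275 and Srp54b, and the 1 was Gm10275, named after their values were seen. Lgals7 differed by -1.47. The DESeq2 values of Gm10275 (25.5 and 40.4) and Srp54b (46.4) are too large to be read as sizes of a change. A shared core of 17 genes rose in naive cells and at all 3 weeks, including Cxcl10, Irf1, Rtp4, Ifit3 and 5 immunity-related GTPases. A further 9 rose at 1, 2 and 3 weeks and were not called in naive cells: Ccn1, Cd274, F830016B08Rik, Ifi211, Junb, Prss23, Skil, Tmem140 and Zbtb38. Of these 9, only Ccn1, Junb and Skil passed the test of the difference between the 1-week and naive responses. Naive changes of Cd274, F830016B08Rik, Ifi211, Prss23, Tmem140 and Zbtb38 were 2.25, 3.11, 0.48, 0.21, 0.85 and 0.16. Their changes after 1 week were 3.70, 2.01, 0.83, 1.09, 1.97 and 0.98. A missing naive call is by itself no evidence of a different response, and a different response of these genes is neither shown nor excluded.

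Mean levels of Junb at 0 h and 2 h were 8.55 and 79.1 CPM at 1 week, 14.1 and 54.9 CPM at 2 weeks, and 10.5 and 34.8 CPM at 3 weeks, with changes of 3.07, 2.03 and 1.65. Skil changed by 2.57, 1.92 and 1.73. Irf1 changed by 2.74, 1.90 and 2.78, Cd274 by 3.70, 2.37 and 2.63, and Parp14 by 2.02, 1.17 (adjusted p = 0.399) and 2.80. For none of these 5 genes did the difference between weeks pass. Of the 11 falls at 1 week, 0 were among the 1 at 2 weeks, and 1 of the 20 at 3 weeks was shared, namely Aspa, at -0.68 and -0.64. The call of Aspa at 1 week was lost in 5 of 12 alternative analyses.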

How the data were processed

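The authors deposited whole-number counts per gene and sample, neither normalized nor pooled, made with Salmon 0.13.1 on mm10 per the labels and imported with tximport. Rounding and the use of molecular identifiers are not given in the sources used here. The study discarded 1 YUMM2.1 sample that it does not name, so all 45 were kept, and all 90 columns were matched to labels.

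Counts were filtered (filterByExpr by group), TMM-scaled and fitted over 15 YUMM2.1 groups with edgeR 4.0.16 in R 4.3.3. Contrasts were tested by glmQLFTest with Benjamini-Hochberg adjustment at 0.05, and DESeq2 1.42.0 was an alternative. The code was tested on simulated data first. Named genes were the 15 largest rises and 10 largest falls without overlap, called list members, 11 preset genes and the 5 smallest p per direction in differences, and 2 of these are not reported here. Members and lists were chosen with earlier results of these data known. P-values rest on the spread within groups of 3 samples, estimated over all 15 YUMM2.1 groups together. This spread may be partly technical.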

Additional observations from a re-analysis of the deposited data

Results flagged for a closer look

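The 2 h response after 1 week of IFNγ differed from the 2 h response of naive cells, by edgeR's test of the difference itself, in 14 genes. The response was smaller after 1 week in 9 of them, including, on the log2 scale, Irgm2 (-3.20), Iigp1 (-2.96), Igtp (-2.65), Gbp2 (-2.32), Gbp7 (-2.20), Ifi47 (-1.99), Irf1 (-1.33) and Irgm1 (-1.30). These responses are ratios to the level before fresh IFNγ, which in each of these named genes was higher after 1 week. Mean Iigp1 went from 2.60 to 73.7 CPM in naive cells and from 146 to 623 CPM after 1 week. Each of these named genes also had a higher mean level at 2 h after 1 week than at 2 h in naive cells. The response was larger after 1 week for Sphk1 (4.13), Junb (2.73), Skil (2.55), Ccn1 (1.49) and Hbegf (1.39). Of the genes named, Igtp, Gbp2, Gbp7, Iigp1, Irgm1, Irgm2, Skil and Hbegf passed in all 17 alternative analyses. No culture kept for 1 week without IFNγ was given it for 2 h, so prior IFNγ and the week of culture cannot be told apart.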

How the results depend on the processing

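Called genes are given as the main count first. Without the filter on low counts, they went from 59 to 136 for the rechallenge (85 higher, 51 lower), from 14 to 51 for the difference from naive cells, from 0 to 47 and 12 for the differences from 2 and 3 weeks, from 70 to 121 for the week before rechallenge, from 23 to 55 for naive cells and from 41 to 81 and 104 to 169 for rechallenge at 2 and 3 weeks. Fitting only the compared groups gave 39 for the rechallenge and 38 against 104 at 3 weeks. Requiring a log2 fold change of 1 gave 40 of 68 between 2 h and 24 h and 64 of 104 at 3 weeks. DESeq2 gave 3 and 1 for the differences from 2 and 3 weeks. In these cases the cause was not tested. DESeq2 gave 78 for the rechallenge (57 of the 59), with 2046 adjusted p undefined, and called 71.2% of its level differences from naive cells higher against 82.7%. Library totals as the only scaling gave 71 (63 higher, 8 lower) and moved the median of all genes to 0.11, and that of the difference from 2 weeks from 0.01 to 0.15.

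Leaving out 1 replicate gave 41 to 58 for the rechallenge, 10 to 14 for the difference from naive cells, 40 to 80 between 2 h and 24 h, 82 to 231 for the level against naive cells, 54 to 71 for the week before, 18 to 23 for naive cells, 25 to 41 and 60 to 109 for rechallenge at 2 and 3 weeks and 0 for the differences from 2 and 3 weeks. Leaving out replicate 3 of both groups gave 48, and this alternative and those for rechallenge at 2 and 3 weeks were chosen after seeing the data. With the replicate block the rechallenge had 60 (58 of the 59). Same-numbered samples had correlated deviations of -0.02, -0.14 and -0.05, so they share a number and are not treated as pairs. Of the 59 genes, 25 passed in every alternative, 34 were lost in at least 1 and 0 reversed. Few counts left wide counting intervals, 3.09 to 15.8 for the ratio of Sphk1.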
